A study of Homo sapiens with 12 samples.

Results

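The genes of WNT signalling were examined in RNA-seq counts of H1 cells (WA01), an established human embryonic stem cell line. A gene was taken when its name in the count table marked it as a WNT ligand, a frizzled receptor, a DKK or SFRP antagonist, or 1 of 16 named co-receptors, nuclear factors, scaffolds and feedback genes. This gave 53 genes of the 27130 in the table. They comprised 19 ligands, 10 frizzled receptors, 4 SFRP and 4 DKK genes, and the WNT-inactivating enzyme NOTUM. The rest were the receptors LRP5, LRP6, LGR4 and LGR5, 4 LEF and TCF factors, and 7 scaffold and feedback genes. The stated question of the study was the role of the zinc finger transcription factor ZNF263 in pluripotency, with the zinc finger factor ZIC2 as its cofactor.

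The 12 libraries formed 4 groups of 3. These were ZNF263 knockout cells that also overexpressed ZIC2, homozygous ZNF263 knockout cells, cells that overexpressed ZNF263, and wild type cells. The library names of the knockout and wild type groups hold the tag vec. The labels do not say whether the knockout cells were 1 clone or the replicates separate cultures, so p-values measure only the spread between these libraries. Libraries held 17175183 to 43464609 counts, with only knockout replicate 1 above 21804410. Counts scaled to library size (CPM) of ZNF263 averaged 32.2 ± 3.15 in knockout cells with ZIC2, 31.1 ± 0.129 in knockout cells, 239.5 ± 18.0 under ZNF263 overexpression and 39.2 ± 1.35 in wild type (SD, n = 3 each), so counts at ZNF263 were lower by 0.33 (log2, adjusted p = 0.000302, edgeR) but not absent in knockout against wild type. ZIC2 averaged 2039 ± 175, 156 ± 3.80, 212 ± 4.67 and 208 ± 3.74 CPM in the same groups (SD, n = 3 each). The 9 pluripotency markers, led by DNMT3B, were all detected and summed to between 9018 and 9547 CPM in every library. Single markers differed: at adjusted p under 0.05 (edgeR), 4 were higher and 2 lower in knockout against wild type. That was 66.7%, beside 38.6% of all genes, with log2 fold changes between -0.27 and 0.39. With ZIC2, 3 were lower than in knockout (8.34% of all genes differed), and 3 were higher and 2 lower than in wild type (37.6%).

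WNT ligands are lipid-modified secreted proteins that bind frizzled receptors. With LRP5 or LRP6 as co-receptor, they stop the AXIN and APC complex from destroying β-catenin, which then enters the nucleus and activates genes bound by LEF and TCF factors. SFRP proteins bind ligands outside the cell, DKK1 blocks LRP6, and AXIN2, NKD1, RNF43, ZNRF3, NOTUM and SP5 are among the genes that the pathway itself induces, most of them as brakes. In human embryonic stem cells, WNT activity drives primitive streak differentiation, and low activity is a feature of undifferentiated cultures.

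A few antagonists and receptors were abundant in these cells, and all ligands were scarce. Levels are compared between genes as RPKM, which divides CPM by the deposited gene length. The secreted antagonists SFRP2 and SFRP1 stood highest, at 213.7 and 175 RPKM in knockout cells with ZIC2, 205 and 132 RPKM in knockout cells, 268 and 234 RPKM under ZNF263 overexpression, and 246 and 214 RPKM in wild type. FZD7, the frizzled receptor best known in human pluripotent cells, followed at 122, 138, 103 and 103 RPKM in the same groups, and the nuclear repressor TCF7L1 at 84.9, 90.4, 79.5 and 77.7 RPKM. No ligand reached 2 RPKM as a group mean: WNT3 and WNT5A led with 1.75 and 1.78 RPKM in knockout cells with ZIC2, 1.48 and 0.575 RPKM in knockout, 0.660 and 0.704 RPKM under ZNF263 overexpression, and 0.874 and 0.610 RPKM in wild type. Of the 53 genes, 37 passed the filter on low counts and were tested, and 16 did not: WNT1, WNT2, WNT6, WNT7A, WNT7B, WNT8A, WNT8B, WNT9B, WNT10A, WNT10B, WNT11, DKK1, DKK4, SFRP4, NOTUM and SP5. WNT3A, WNT4 and LGR5 passed it only through the knockout libraries with ZIC2.

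**Figure D1:**
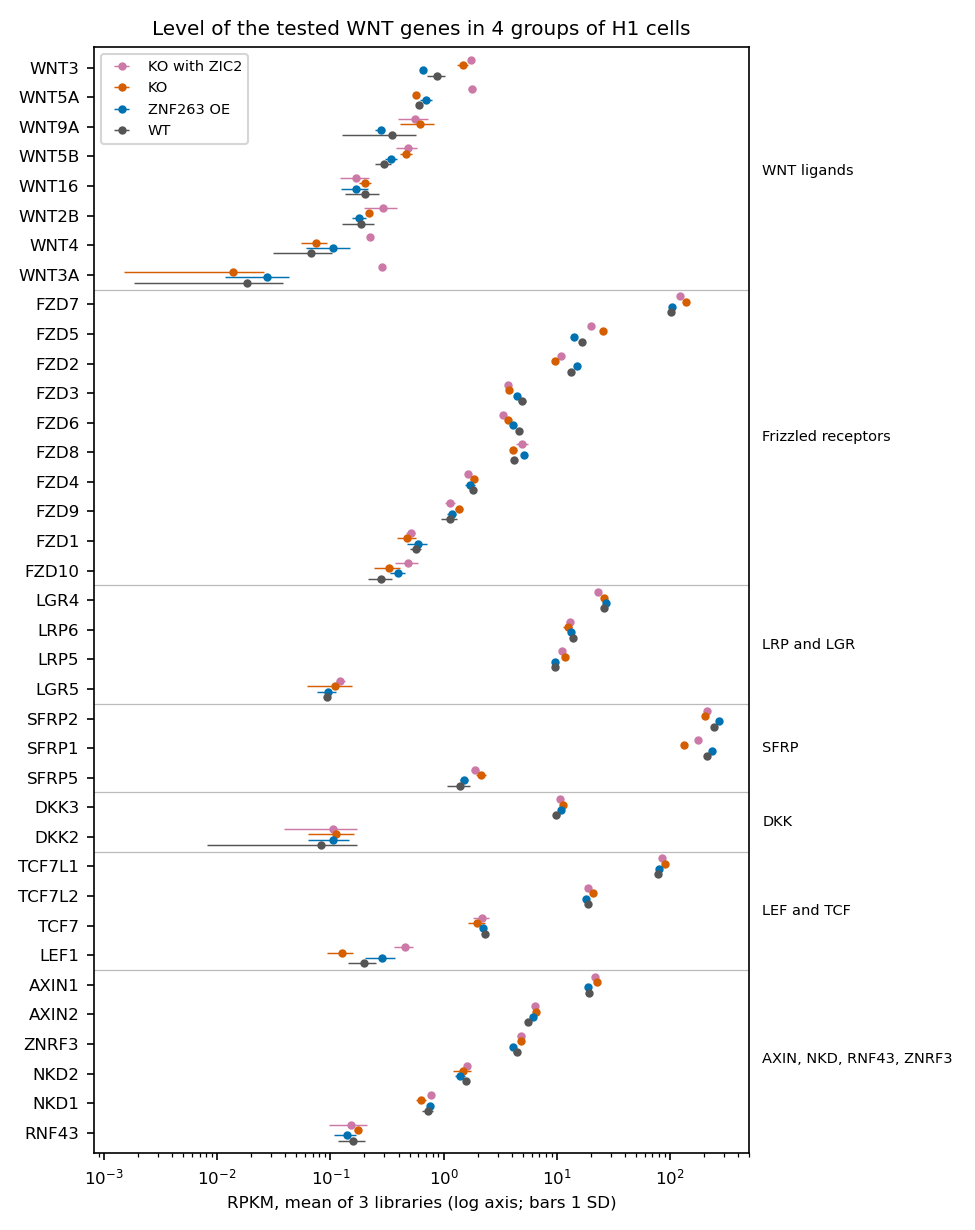
Mean RPKM (log axis) of the 37 tested WNT genes in the 4 groups, arranged by role, with bars of 1 SD over 3 libraries. SFRP2, SFRP1 and FZD7 lie above 100 RPKM in every group, and all 8 tested ligands lie below 2 RPKM.

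Upstream sequences of 6 members are given here because the compared factors, ZNF263 and ZIC2, bind DNA. These genes were picked with their values known. WNT3A stayed under 1 CPM on average in every group, and SP5 was not tested. The sequences are the 250 bases before the transcript start in RefSeq (GRCh38.p14), written 5′ to 3′ on the gene's strand. WNT5A has an entry for each of its starts. Capitals mark matches, on either strand, to CAGCAGG (the core letters of a ZIC site), GGGAGGA (letters of a ZNF263 site) or CTTTGAT (a LEF and TCF site).
WNT3A, chr1:228006748-228006997, plus strand: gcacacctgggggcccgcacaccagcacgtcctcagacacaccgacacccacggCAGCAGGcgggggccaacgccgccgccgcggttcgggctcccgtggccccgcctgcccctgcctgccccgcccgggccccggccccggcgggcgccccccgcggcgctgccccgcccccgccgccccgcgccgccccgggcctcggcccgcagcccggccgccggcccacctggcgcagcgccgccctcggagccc
WNT5A upstream start, chr3:55487307-55487556, minus strand: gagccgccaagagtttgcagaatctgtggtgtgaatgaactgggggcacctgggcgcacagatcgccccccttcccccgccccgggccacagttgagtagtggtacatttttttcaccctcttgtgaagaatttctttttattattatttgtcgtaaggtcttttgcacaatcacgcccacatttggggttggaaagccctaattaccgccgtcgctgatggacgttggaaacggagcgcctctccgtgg
WNT5A downstream start, chr3:55481399-55481648, minus strand: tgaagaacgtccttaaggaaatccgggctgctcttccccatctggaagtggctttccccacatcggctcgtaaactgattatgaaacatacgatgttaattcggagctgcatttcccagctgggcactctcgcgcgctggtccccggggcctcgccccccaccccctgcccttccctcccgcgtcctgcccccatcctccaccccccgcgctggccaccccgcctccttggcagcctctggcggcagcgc
WNT3, chr17:46818693-46818942, minus strand: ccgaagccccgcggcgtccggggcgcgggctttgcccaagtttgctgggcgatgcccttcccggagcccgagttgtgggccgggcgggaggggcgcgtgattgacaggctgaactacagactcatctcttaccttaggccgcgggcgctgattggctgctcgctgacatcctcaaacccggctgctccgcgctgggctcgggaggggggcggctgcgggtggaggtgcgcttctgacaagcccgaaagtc
LEF1, chr4:108166302-108166551, minus strand: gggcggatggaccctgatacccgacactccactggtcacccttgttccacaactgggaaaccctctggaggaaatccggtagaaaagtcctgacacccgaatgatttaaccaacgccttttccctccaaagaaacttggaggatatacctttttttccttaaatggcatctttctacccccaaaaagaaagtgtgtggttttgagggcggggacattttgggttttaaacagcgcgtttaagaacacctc
SP5, chr2:170715087-170715336, plus strand: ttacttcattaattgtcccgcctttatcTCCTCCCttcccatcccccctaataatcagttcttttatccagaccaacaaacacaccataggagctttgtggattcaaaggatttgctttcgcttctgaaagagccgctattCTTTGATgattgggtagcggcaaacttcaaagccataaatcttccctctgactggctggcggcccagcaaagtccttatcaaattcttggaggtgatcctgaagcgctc
FZD5, chr2:207769907-207770156, minus strand: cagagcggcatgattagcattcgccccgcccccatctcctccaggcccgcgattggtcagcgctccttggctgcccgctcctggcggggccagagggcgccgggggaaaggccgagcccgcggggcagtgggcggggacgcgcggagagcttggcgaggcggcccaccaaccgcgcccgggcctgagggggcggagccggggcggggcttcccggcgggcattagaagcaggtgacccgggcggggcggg
In the WNT3A window the ZIC letters begin 196 bases before the start. In the SP5 window the ZNF263 letters lie on the opposite strand, beginning 222 bases before the start, and the LEF and TCF letters begin 109 bases before it. The windows of WNT5A, WNT3, LEF1 and FZD5 held none of these letters, and neither did those of SFRP5 and WNT5B, which are not shown. Of the 42 windows of 35 members in the table, 4 (9.52%) held the ZIC letters, against 8.48% of 35116 windows of all genes. For ZNF263 the counts were 12 windows (28.6%) and 16.0% of all windows, and for LEF and TCF 1 window (2.38%) and 2.26%. A match is a description of the letters and not a binding site.

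Changes were tested with the quasi-likelihood test of edgeR over all 15437 genes that passed the filter, and a gene was called at a Benjamini-Hochberg adjusted p under 0.05. In knockout against wild type, 11 of the 37 genes were higher and 5 lower, together 43.2%, beside 38.6% of all tested genes called (20.0% higher and 18.5% lower). In knockout cells with ZIC2 against knockout cells, 6 were higher and 4 lower, or 27.0% beside 8.34% of all genes (4.99% higher and 3.35% lower); with the counts corrected for GC content and length, 6 were higher and 7 lower, or 35.1% beside 14.9% of all genes (5.66% higher and 9.22% lower). Against wild type, knockout cells with ZIC2 had 14 genes higher and 6 lower, or 54.1% beside 37.6% of all genes (20.3% higher and 17.3% lower); with that correction, 7 were higher and 5 lower, or 32.4% beside 29% of all genes. The rises with ZIC2 in both comparisons include WNT3A and WNT4, which passed the filter only through the libraries with ZIC2. With the filter at 1 CPM in 3 libraries (30 members), 4 were higher and 4 lower against knockout, or 26.7% beside 8.85% of all genes. Against wild type 13 were then higher and 6 lower, or 63.3% beside 40.8%. Under ZNF263 overexpression none was higher and 1 was lower, or 2.70%, beside 0.764% of all genes (0.317% higher and 0.447% lower). Without adjustment, 9 of the 37 had a p under 0.05 there (edgeR), beside 1630 of all 15437 genes.

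The share called in knockout was thus 43.2% beside 38.6% of all genes. It was 37.8% beside 29.8% with the GC and length correction, and 53.3% beside 41.7% with the filter at 1 CPM in 3 libraries. Most of the calls were small. Of the 11 rises in knockout 4 (WNT3, WNT5B, FZD5 and SFRP5) and of the 5 falls 1 (SFRP1) reached 0.5 on the log2 scale. Together these were 13.5% of the 37 genes, beside 6.61% of all genes that were called with a change of that size. With ZIC2 against knockout, 4 rises (WNT5A, WNT3A, WNT4 and LEF1) and no fall reached it, or 10.8% beside 2.96% of all genes. With ZIC2 against wild type 6 rises (the same 4 genes, WNT3 and FZD10) and no fall did, or 16.2% beside 7.29%. WNT3A and WNT4 had to differ here, because they passed the filter only through the libraries with ZIC2. With the filter at 1 CPM in 3 libraries, which leaves 30 members, 2 rises (WNT5A and LEF1) reached 0.5 with ZIC2 against knockout. That was 6.67%, beside 2.98% of all genes. Libraries of the groups did not overlap for 16 of the 37 genes in knockout against wild type (46.7% of all genes), for 17 with ZIC2 against knockout (21.8%), for 23 with ZIC2 against wild type (47.3%) and for 9 under ZNF263 overexpression (19.4%). The counts with ZIC2 include WNT3A and WNT4, and the count against wild type also includes LGR5. All of these were tested only because of the libraries with ZIC2, and they also enter the medians that follow. No count without them was made. The median log2 fold change of the 37 genes and of all genes was 0.12 and -0.01 in knockout against wild type, 0.02 and -0.00108 with ZIC2 against knockout, 0.13 and 0.00382 with ZIC2 against wild type, and 0.03 and 0.000339 under ZNF263 overexpression. The comparisons share libraries (the knockout or the wild type ones), so their values are set side by side and not as repeats of each other. Bulk RNA cannot tell fewer cells of a type from less RNA per cell.

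**Figure D2:**
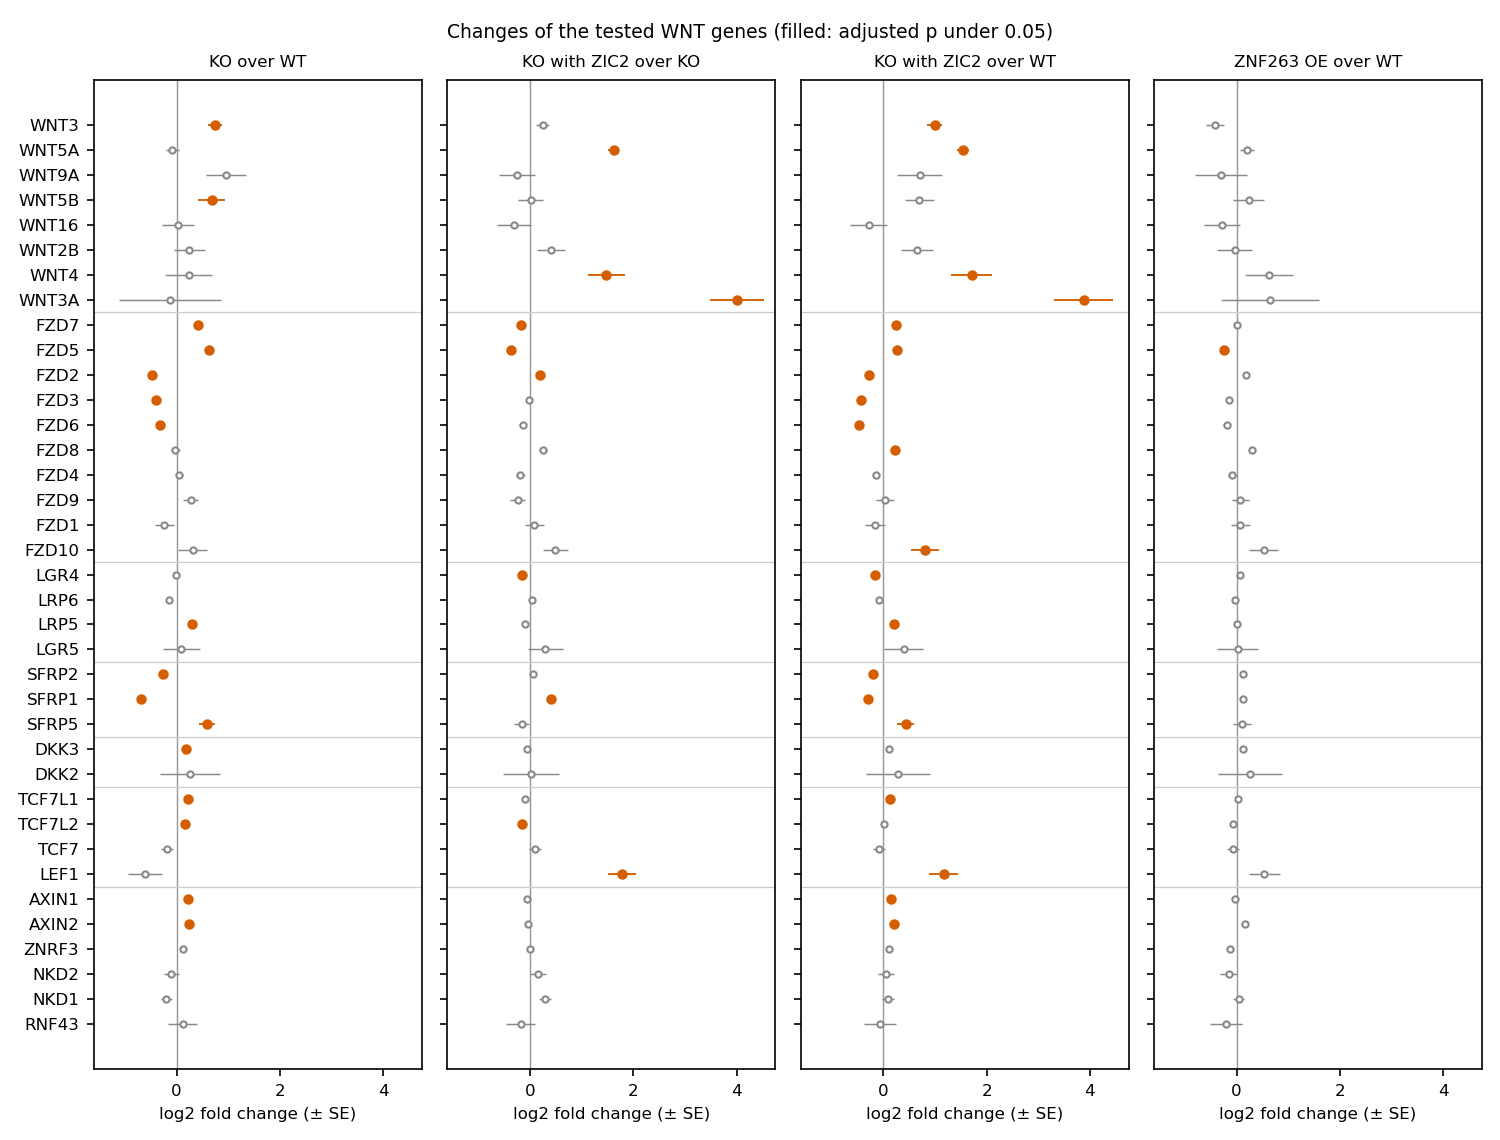
Log2 fold change (bars, standard error) of the 37 tested WNT genes in the 4 comparisons, the first-named group over the second; filled points have an adjusted p under 0.05. The 4 large filled points on the ligand and LEF rows of the comparison of knockout cells with ZIC2 against knockout cells are WNT5A, WNT4, WNT3A and LEF1, at 1.48 to 4.0; WNT4 and WNT3A were tested only because of the libraries with ZIC2.

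WNT3, which in the mouse is required to form the primitive streak, was the ligand that rose in both knockout groups (chromosome 17, 44839872 to 44896126, hg19). It had 6.33, 5.74 and 5.56 CPM in knockout cells with ZIC2, 4.96, 5.53 and 4.43 CPM in knockout cells, 2.24, 2.27 and 2.13 CPM under ZNF263 overexpression, and 2.77, 2.50 and 3.52 CPM in wild type. Every library of either knockout group lay above every wild type library, and every library that overexpressed ZNF263 lay below them. Its log2 fold change was 0.74 in knockout against wild type (SE 0.14, adjusted p = 0.000195, edgeR) and 0.99 with ZIC2 against wild type (SE 0.14, adjusted p = 1.09e-05). Neither the difference with ZIC2 against knockout (0.25, SE 0.12, adjusted p = 0.264) nor that under ZNF263 overexpression (-0.42, SE 0.17, adjusted p = 0.364) passed the test.

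WNT5A, a ligand best known for signalling without β-catenin, rose about 3-fold with ZIC2 (chromosome 3, 55499743 to 55521670). It had 12.05, 10.97 and 10.24 CPM in knockout cells with ZIC2, 3.70, 3.48 and 3.59 CPM in knockout cells, 4.91, 3.88 and 4.40 CPM under ZNF263 overexpression, and 3.58, 4.0 and 3.86 CPM in wild type. The libraries with ZIC2 stood apart from all others, while knockout and wild type libraries overlapped. On the log2 scale it rose by 1.62 against knockout (SE 0.11, adjusted p = 2.23e-10), a fold of 3.07, and 1.54 against wild type (SE 0.11, adjusted p = 4.98e-10). In knockout against wild type it was -0.08 (95% interval -0.35 to 0.19, adjusted p = 0.674).

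WNT3A, a classical activator of β-catenin, was close to absent without ZIC2 (chromosome 1, 228194723 to 228248972). Its raw counts were 17, 15 and 15 in knockout cells with ZIC2, 3, 1 and 0 in knockout cells, 1, 1 and 3 under ZNF263 overexpression, and 2, 0 and 1 in wild type. Pooled and scaled, the 47 counts with ZIC2 stood 17.8 times above the 4 of knockout (exact 95% interval 6.52 to 68.1) and 16.3 times above the 3 of wild type (5.24 to 81.7). These intervals cover counting error only, and the level reached with ZIC2 was 0.855 CPM. The fitted log2 fold changes were 4.0 against knockout and 3.88 against wild type, and no p-value is given, since WNT3A was tested only because of the libraries with ZIC2.

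WNT4, which acts in kidney and reproductive tract development, was also highest with ZIC2, at a similar level (chromosome 1, 22443798 to 22469519). It had 0.911, 0.827 and 0.878 CPM in knockout cells with ZIC2, 0.373, 0.263 and 0.233 CPM in knockout cells, 0.218, 0.554 and 0.454 CPM under ZNF263 overexpression, and 0.173, 0.426 and 0.190 CPM in wild type. No library without ZIC2 reached the lowest library with it. The pooled ratio was 2.80 against knockout (48 and 26 counts, interval 1.70 to 4.70) and 3.32 against wild type (48 and 15 counts, interval 1.83 to 6.39). It too was tested only because of the libraries with ZIC2, and a filter of at least 1 CPM in 3 libraries leaves both genes untested.

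WNT5B, the close relative of WNT5A, had 1.01, 1.38 and 0.936 CPM in knockout cells with ZIC2, 1.16, 1.16 and 0.932 CPM in knockout cells, 0.709, 0.776 and 0.907 CPM under ZNF263 overexpression, and 0.577, 0.799 and 0.666 CPM in wild type. Neither knockout group overlapped wild type. Knockout stood above wild type by 0.68 on the log2 scale (SE 0.26, adjusted p = 0.0438). That call was lost under 10 of 15 alternatives, with DESeq2 (adjusted p = 0.148) and without any wild type replicate or replicate 1 or 2 of knockout (0.0561 to 0.155). With ZIC2 against wild type the difference was 0.70 (adjusted p = 0.0548). WNT9A gave 70 pooled counts from the knockout libraries and 24 from wild type (scaled ratio 2.00, interval 1.24 to 3.32), with overlapping libraries and an adjusted p of 0.0568. It was called higher with no filter (0.0451), with limma-voom (0.0384) and when replicate 2 or 3 of knockout or replicate 2 of wild type was left out (0.0195 to 0.0433), and its adjusted p was 0.0563 to 0.385 under the other alternatives. WNT2B and WNT16, the other tested ligands, were called in no comparison, with log2 fold changes between -0.31 and 0.66.

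Among the 11 untested ligands a few had more counts with ZIC2. WNT8A, which is expressed in the primitive streak of mouse embryos, had 9, 6 and 6 counts in knockout cells with ZIC2, 3, 3 and 1 in knockout, 1, 0 and 2 under ZNF263 overexpression, and 1, 3 and 1 in wild type. Its pooled ratio with ZIC2 was 4.55 against knockout (interval 1.86 to 12.7) and 4.36 against wild type (1.60 to 14.8). WNT6 had 5, 2 and 6 counts with ZIC2 and 0, 0 and 1 in knockout, a ratio of 19.7 with a wide interval (2.96 to 838). In wild type and under ZNF263 overexpression WNT6 had no count, so it was at least 4.50-fold higher with ZIC2 than in wild type, taking 3 counts over the group as the floor. WNT9B had 15, 10 and 4 counts with ZIC2, 11, 4 and 7 in knockout and 1, 3 and 6 in wild type, with a pooled ratio of 2.00 against knockout (1.11 to 3.65). WNT11 had 9 pooled counts with ZIC2, 10 in knockout, 0 under ZNF263 overexpression and 5 in wild type, WNT7B had 17, 17, 12 and 9, WNT8B had 7, 16, 26 and 18, and WNT10B had 5, 5, 2 and 3. WNT1, WNT2, WNT7A and WNT10A had at most 5 counts each over all 12 libraries.

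Summed over the 19 ligands, expression was 6.24 ± 0.235 RPKM in knockout cells with ZIC2, 4.04 ± 0.336 RPKM in knockout cells, 2.80 ± 0.190 RPKM under ZNF263 overexpression and 2.95 ± 0.236 RPKM in wild type (SD, n = 3 each). WNT5A made up 28.4% of the sum with ZIC2, 14.3% in knockout, 25.2% under ZNF263 overexpression and 20.8% in wild type, and WNT3 made up 28.1%, 36.7%, 23.6% and 29.9%. Markers of other cell types moved with the same libraries, and their part in the ligand result was not tested. The 7 neural crest markers, led by FOXD3 and none at 0 in all libraries, 5 of them tested, had 2 members higher and none lower with ZIC2 against knockout (beside 4.99% and 3.35% of all genes) and summed to 48.6 to 51.1 CPM with ZIC2, 37.9 to 39.6 CPM in knockout, 32.3 to 35.1 CPM under ZNF263 overexpression and 34.4 to 36.2 CPM in wild type. The 7 primitive streak markers stayed low, at 3.39 to 5.29, 3.45 to 4.27, 2.29 to 3.76 and 2.66 to 3.05 CPM in the same order, and 6 of them averaged under 1 CPM.

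**Figure D3:**
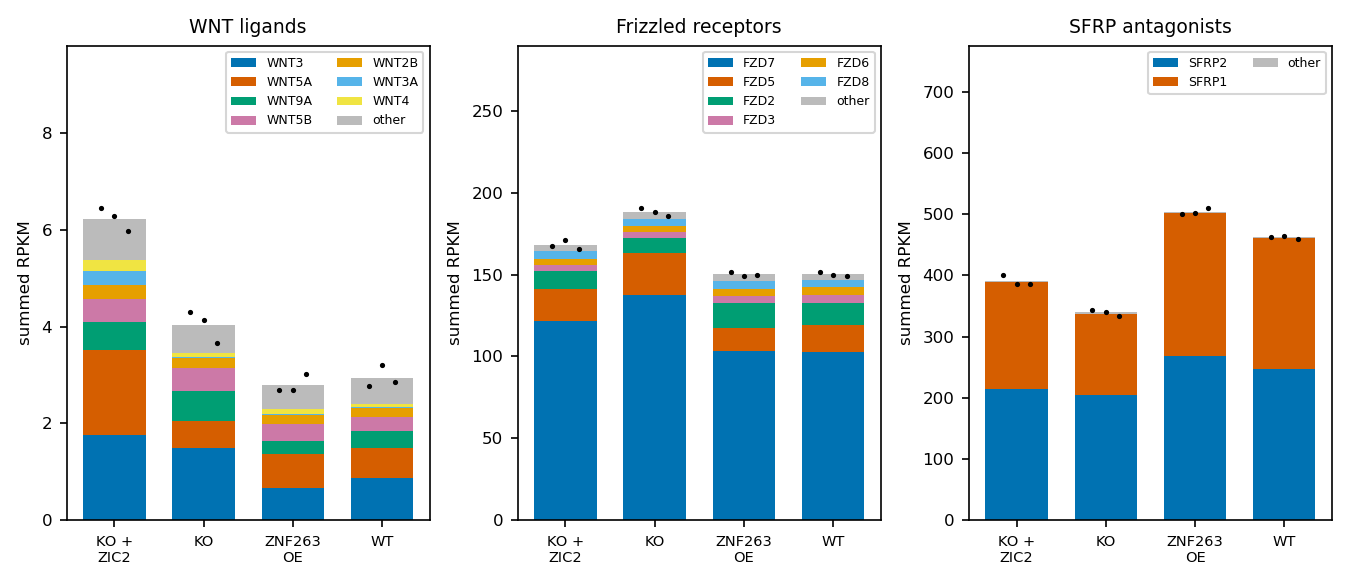
Summed RPKM of the WNT ligands, frizzled receptors and SFRP antagonists in the 4 groups; bars are means of 3 libraries split by gene, and points are the libraries. The ligand sum is highest with ZIC2 (6.24), the frizzled sum in knockout (188), and the SFRP sum under ZNF263 overexpression (504).

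The 10 frizzled receptors were all tested. In knockout 2 rose, 3 fell and 5 did not pass the test, or 20.0% higher and 30.0% lower, near the 20.0% and 18.5% of all genes. FZD5, a receptor needed for yolk sac vessels and eye development in the mouse, moved most (chromosome 2, 208627310 to 208634143). It had 126, 128 and 139 CPM in knockout cells with ZIC2, 175, 156 and 171 CPM in knockout cells, 96.1, 91.3 and 89.7 CPM under ZNF263 overexpression, and 103, 111 and 113 CPM in wild type. No pair of the 4 groups overlapped. The log2 fold change was 0.62 in knockout against wild type (SE 0.05, adjusted p = 1.67e-09), -0.36 with ZIC2 against knockout (SE 0.05, adjusted p = 1.78e-05), and 0.26 with ZIC2 against wild type (SE 0.05, adjusted p = 0.000249).

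FZD5 was also the 1 member called under ZNF263 overexpression, where it fell by 0.24 on the log2 scale (SE 0.05, adjusted p = 0.0212). Without replicate 2 or 3 of either group that call was lost, with adjusted p-values between 0.110 and 0.157 and changes of -0.23 to -0.21. The direction thus differed between the knockout and the overexpression of ZNF263, each against the same wild type libraries.

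FZD7 (chromosome 2, 202899310 to 202903160) held 68.4 to 73.1% of the frizzled sum as group means. It had 467, 480 and 457 CPM in knockout cells with ZIC2, 534, 536 and 519 CPM in knockout cells, 399.9, 398 and 397 CPM under ZNF263 overexpression, and 409, 389 and 391 CPM in wild type. Knockout libraries were highest, those with ZIC2 lay between, and the overexpression libraries fell within the wild type range. It rose by 0.42 in knockout (SE 0.03, adjusted p = 2.09e-09), was lower by 0.18 with ZIC2 than in knockout (log2 fold change -0.18, SE 0.03, adjusted p = 0.000887) and stayed 0.24 above wild type (SE 0.03, adjusted p = 7.53e-06), or 0.15 after correction for GC content and length.

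FZD2, FZD3 and FZD6 fell in knockout. FZD2 (chromosome 17, 42634812 to 42638630) had 43.2, 39.7 and 41.7 CPM in knockout cells with ZIC2, 35.2, 37.0 and 37.4 CPM in knockout cells, 58.6, 55.7 and 58.6 CPM under ZNF263 overexpression, and 48.2, 52.3 and 51.3 CPM in wild type. The groups did not overlap, with knockout lowest and ZNF263 overexpression highest. Its log2 fold change was -0.48 in knockout (SE 0.05, adjusted p = 1.59e-07), 0.19 with ZIC2 against knockout (SE 0.05, adjusted p = 0.02) and 0.19 under ZNF263 overexpression (SE 0.05, adjusted p = 0.0864). With ZIC2 against wild type it was -0.28 (adjusted p = 0.000154), or -0.47 after correction for GC content and length. The call with ZIC2 against knockout was lost with DESeq2 (adjusted p = 0.0561) and without any of 3 libraries, replicates 1 and 3 with ZIC2 and replicate 1 of knockout (0.0580 to 0.120).

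FZD3 and FZD6, which guide axons and planar polarity in the mouse, fell in both knockout groups. FZD3 had 51.3, 51.3 and 49.9 CPM with ZIC2, 52.5, 50.3 and 52.2 CPM in knockout, 62.3, 62.5 and 60.5 CPM under ZNF263 overexpression, and 68.1, 73.9 and 63.0 CPM in wild type. Both knockout groups lay below all wild type libraries and overlapped each other. Its log2 fold changes were -0.40 in knockout and -0.43 with ZIC2 against wild type (adjusted p = 1.84e-06 and 1.37e-06), and after correction for GC content and length -0.17 and -0.23 (adjusted p = 0.00813 and 0.00123). FZD6 changed by -0.33 and -0.47 in the same comparisons (adjusted p = 0.000535 and 2.75e-05), and by -0.19 and -0.34 after that correction. For both genes the libraries that overexpressed ZNF263 also lay below all wild type libraries. Those changes, -0.14 for FZD3 and -0.19 for FZD6, were not called (adjusted p = 0.249 and 0.284, edgeR).

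FZD10 and FZD8 were called in knockout cells with ZIC2 against wild type and in no other comparison, at 0.80 (SE 0.27, adjusted p = 0.0238) and 0.23 (SE 0.08, adjusted p = 0.0328); their differences from the changes in the other comparisons were not tested. FZD10 had 1.82, 1.76 and 1.17 CPM with ZIC2, 1.37, 1.00 and 0.839 CPM in knockout, 1.31, 1.11 and 1.497 CPM under ZNF263 overexpression, and 1.15, 0.906 and 0.714 CPM in wild type. Both calls were lost with DESeq2 (adjusted p = 0.0562 and 0.0749) and under the correction for GC content and length (0.0807 and 0.701). The FZD10 call was also lost without replicate 1 or 2 with ZIC2 or wild type replicate 2 or 3 (0.0634 to 0.124), and the FZD8 call without replicate 2 with ZIC2 or any wild type replicate (0.0587 to 0.259). FZD8 was called higher with ZIC2 against knockout with no filter (0.25, adjusted p = 0.0475), without replicate 3 with ZIC2 (0.31, adjusted p = 0.0352) and without knockout replicate 2 (0.29, adjusted p = 0.0239), and under ZNF263 overexpression when only the 6 libraries were fitted (0.30, adjusted p = 0.0155). FZD1, FZD4 and FZD9 passed the test in no comparison, and FZD4 counts are uncertain because its exons overlap those of PRSS23 on the opposite strand. The frizzled sum was 168 ± 2.67 RPKM in knockout cells with ZIC2, 188 ± 2.38 RPKM in knockout cells, 150.2 ± 1.14 RPKM under ZNF263 overexpression and 150.3 ± 1.43 RPKM in wild type (SD, n = 3 each).

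**Figure D4:**
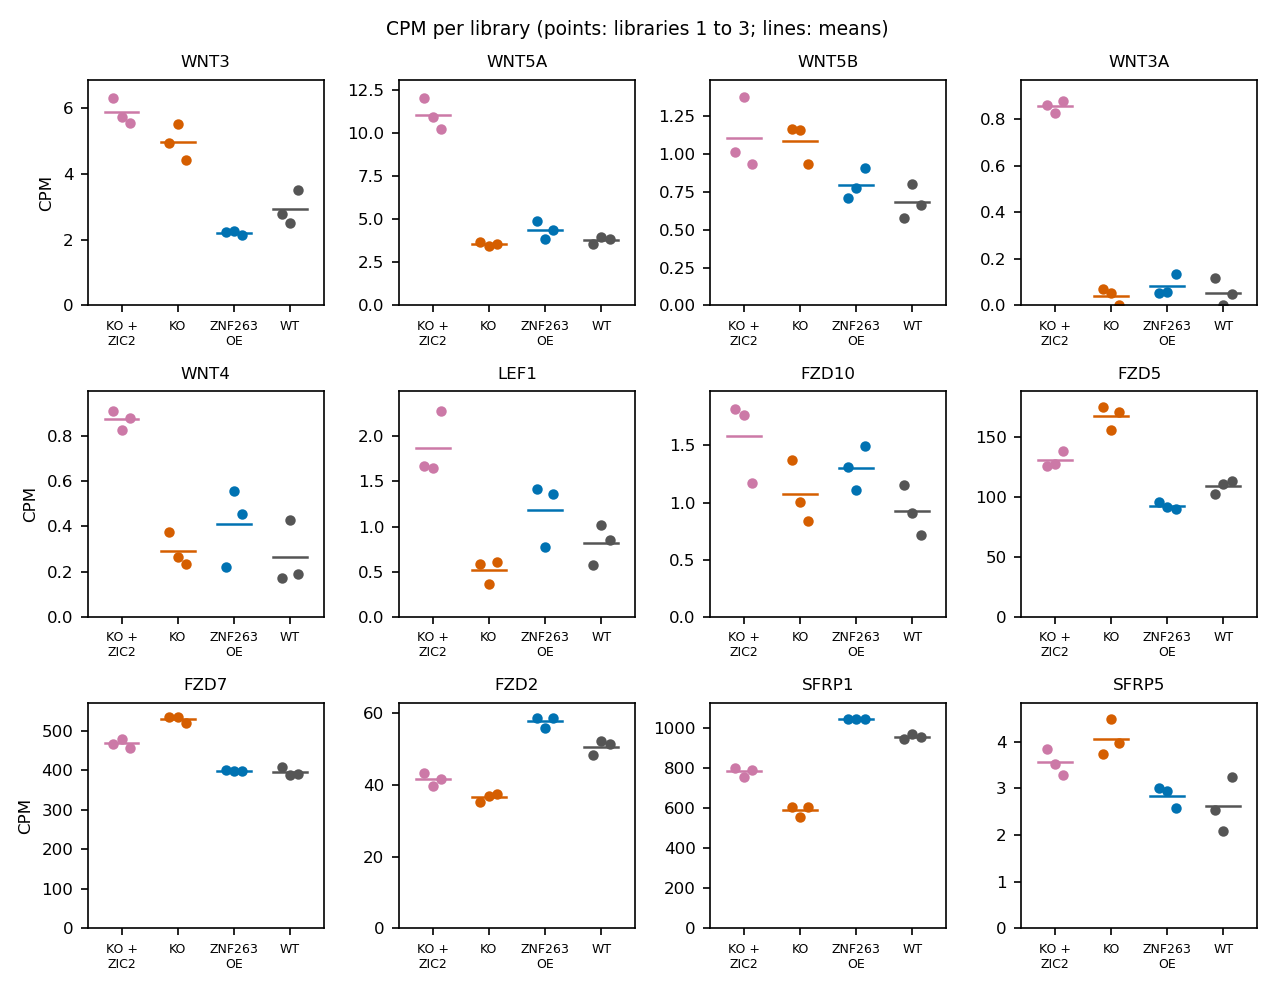
CPM of 12 WNT genes in each library (points) with group means (lines), on axes that start at 0. WNT5A, WNT3A, WNT4 and LEF1 stand above knockout in all 3 libraries with ZIC2, and SFRP1 has its lowest libraries, 557 to 608 CPM, in knockout. WNT3A and WNT4 were tested only because of the libraries with ZIC2.

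Of the co-receptors, LRP5, the partner of frizzleds in β-catenin signalling, rose in knockout by 0.30 (SE 0.05, adjusted p = 2.77e-05) and stayed 0.21 above wild type with ZIC2 (adjusted p = 0.00146); after correction for GC content and length the first was 0.19 (adjusted p = 0.000379) and the second call was lost (0.04, adjusted p = 0.517). Its paralogue LRP6 was not called, at -0.14 in knockout (adjusted p = 0.0571). LGR4, a receptor for R-spondins, which raise WNT responses, had 118, 119 and 129 CPM with ZIC2, 137, 130.1 and 139.7 CPM in knockout, 145, 138 and 147 CPM under ZNF263 overexpression, and 134, 136 and 139.7 CPM in wild type. It was lower with ZIC2 than in knockout (log2 fold change -0.15, adjusted p = 0.0247) and than in wild type (-0.16, adjusted p = 0.00531). The call against knockout was lost without replicate 1 or 2 with ZIC2 or replicate 1 or 3 of knockout (adjusted p = 0.0507 to 0.132), and the call against wild type with the GC and length correction (-0.08, adjusted p = 0.0939). LGR5 had at most 0.790 CPM in any library and was not called.

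SFRP1, a secreted protein that holds WNT ligands away from their receptors, fell most of the 37 tested members in knockout and lay between knockout and wild type with ZIC2 (chromosome 8, 41119476 to 41166990). It had 803, 756 and 793 CPM in knockout cells with ZIC2, 605, 557 and 608 CPM in knockout cells, 1047, 1047 and 1044 CPM under ZNF263 overexpression, and 943, 971 and 956 CPM in wild type. The 4 groups did not overlap. The log2 fold change was -0.70 in knockout against wild type (SE 0.04, adjusted p = 1e-12), 0.41 with ZIC2 against knockout (SE 0.04, adjusted p = 2.77e-08) and -0.29 with ZIC2 against wild type (SE 0.04, adjusted p = 1.73e-06). Under ZNF263 overexpression it was 0.13 (SE 0.04, adjusted p = 0.106), and it was called there when only the 6 libraries compared were fitted or when GC content and length were corrected (0.13, adjusted p = 0.00409).

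SFRP2, of the same family (chromosome 4, 154701742 to 154710228), had 436, 429 and 411 CPM in knockout cells with ZIC2, 411, 424 and 389 CPM in knockout cells, 527, 529 and 546 CPM under ZNF263 overexpression, and 499, 488 and 484 CPM in wild type. It fell by 0.27 in knockout (log2 fold change -0.27, SE 0.04, adjusted p = 6.24e-06) and was also lower with ZIC2 than in wild type (-0.20, SE 0.04, adjusted p = 0.00014). The groups with and without ZIC2 overlapped, and their difference of 0.06 did not pass the test (95% interval -0.02 to 0.14, adjusted p = 0.397). SFRP5, at under 5 CPM, moved the other way: it had 3.85, 3.53 and 3.28 CPM with ZIC2, 3.73, 4.48 and 3.96 CPM in knockout, 3.00, 2.94 and 2.59 CPM under ZNF263 overexpression, and 2.54, 2.08 and 3.24 CPM in wild type. It rose by 0.59 in knockout (SE 0.15, adjusted p = 0.0038) and by 0.43 with ZIC2 against wild type (SE 0.17, adjusted p = 0.0458), and the second call was lost without replicate 1 or 2 with ZIC2 or wild type replicate 1 or 2 (adjusted p = 0.0831 to 0.245) and under 6 other settings.

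All 3 tested SFRP genes were thus called in both knockout groups against wild type, 2 lower and 1 higher. Of all genes, 38.6% were called in knockout and 37.6% with ZIC2 against wild type. These comparisons share the wild type libraries, and the SFRP5 call with ZIC2 was lost under several settings. The sum over all 4 SFRP genes was 391 ± 8.64 RPKM with ZIC2, 339 ± 5.18 RPKM in knockout, 504 ± 4.79 RPKM under ZNF263 overexpression and 462 ± 2.60 RPKM in wild type (SD, n = 3 each). SFRP4 had 4 to 9 counts per group. Of the DKK genes, DKK3, a divergent member of the family, rose by 0.18 in knockout (SE 0.06, adjusted p = 0.0181), a call lost without knockout replicate 3 or wild type replicate 1 (0.0752 and 0.134) and with the GC and length correction (0.081). DKK2 was tested and not called. DKK1, the LRP6 antagonist and a target of the pathway, had 7 counts with ZIC2, 14 in knockout, 16 under ZNF263 overexpression and 12 in wild type, too few to test. NOTUM had 1, 5, 7 and 5 counts and DKK4 had 5, 3, 1 and 1 in the same groups.

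Among the nuclear factors, LEF1, both a partner of β-catenin and a target of the pathway, was higher with ZIC2 (chromosome 4, 108968701 to 109090112). It had 1.67, 1.65 and 2.28 CPM in knockout cells with ZIC2, 0.582, 0.369 and 0.606 CPM in knockout cells, 1.42, 0.776 and 1.36 CPM under ZNF263 overexpression, and 0.577, 1.01 and 0.857 CPM in wild type. All libraries with ZIC2 lay above all others, and knockout overlapped wild type. The log2 fold change was 1.78 against knockout (SE 0.28, adjusted p = 0.000112), from 102 and 45 pooled counts, and 1.17 against wild type (SE 0.28, adjusted p = 0.00187). Knockout against wild type gave -0.61 (SE 0.33, adjusted p = 0.152). LEF1 had 264 counts in all libraries, against 6 for LEF1-AS1, whose exons overlap it on the opposite strand.

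TCF7L1, a repressor of WNT targets in pluripotent cells, had 249.96, 248 and 245 CPM with ZIC2, 266, 264 and 262 CPM in knockout, 233, 226 and 238 CPM under ZNF263 overexpression, and 226, 223 and 230.4 CPM in wild type. It rose by 0.22 in knockout (SE 0.03, adjusted p = 2.28e-05) and by 0.13 with ZIC2 against wild type (adjusted p = 0.00478), and after correction for GC content and length the first was 0.10 and the second turned to -0.05 (adjusted p = 0.182). TCF7L2 was higher in knockout by 0.15 (adjusted p = 0.0069) and lower with ZIC2 than in knockout (-0.14, adjusted p = 0.0414). The fall was lost without any 1 replicate with ZIC2 or replicate 1 or 3 of knockout (0.0517 to 0.177). TCF7 was not called, at -0.18 to 0.10.

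AXIN2, the target most often used as a readout of β-catenin activity, had 27.7, 25.9 and 27.6 CPM in knockout cells with ZIC2, 28.8, 26.8 and 27.1 CPM in knockout cells, 25.0, 26.4 and 27.0 CPM under ZNF263 overexpression, and 22.3, 24.4 and 23.4 CPM in wild type. Both knockout groups lay above wild type and overlapped each other. The libraries that overexpressed ZNF263 also lay above every wild type library, but that change of 0.16 was not called (adjusted p = 0.311, edgeR). The rise was 0.24 in knockout (SE 0.06, adjusted p = 0.00209) and 0.21 with ZIC2 against wild type (SE 0.06, adjusted p = 0.00932), and with ZIC2 against knockout the difference was -0.03 (95% interval -0.15 to 0.09). The rise with ZIC2 was 0.11 (adjusted p = 0.157) after correction for GC content and length, and 0.17 (adjusted p = 0.0555) without wild type replicate 1.

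AXIN1, the scaffold of the destruction complex and no target, rose by a similar amount, 0.22 in knockout (adjusted p = 0.000864) and 0.16 with ZIC2 against wild type (adjusted p = 0.0145), and under the same correction these were 0.08 (adjusted p = 0.126) and -0.03 (adjusted p = 0.611). The second call was also lost without replicate 3 with ZIC2 (0.0808) or wild type replicate 2 (0.106). NKD1 and NKD2, which bind Dishevelled, and RNF43 and ZNRF3, ligases that remove frizzled receptors from the membrane, passed the test in no comparison. Their log2 fold changes lay between -0.20 and 0.29, and RNF43 counts are uncertain because of the antisense gene TSPOAP1-AS1. SP5, a direct target, had 19, 15 and 1 counts in knockout cells with ZIC2, 4, 1 and 0 in knockout, 0, 6 and 7 under ZNF263 overexpression, and 1, 5 and 5 in wild type. Its pooled ratio with ZIC2 was 10.6 against knockout (interval 4.14 to 34.7) and 3.30 against wild type (1.64 to 7.21), and in knockout against wild type it was 0.311 (0.0848 to 0.971). The SP5 counts differed between libraries of a group, and the third library with ZIC2, at 1 count, lay within the range of the other groups.

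Beyond the 53 genes, the rest of the pathway moved in both directions. Of 85 tested among 94 further WNT genes, 26 were higher and 20 lower in knockout, 8 higher and 6 lower with ZIC2 against knockout, 26 higher and 13 lower with ZIC2 against wild type, and none higher and 1 lower under ZNF263 overexpression. These were 54.1%, 16.5%, 45.9% and 1.18% of the 85, beside 38.6%, 8.34%, 37.6% and 0.764% of all genes called in the same comparisons. Among genes with at least 1 CPM in the higher group, the largest called changes in knockout were FGF8 (1.53, adjusted p = 1.18e-08), a growth factor of the streak and a published WNT target, the destruction complex gene APC2 (-0.89), the β-catenin cofactor PYGO1 (-0.88), the streak factor MIXL1 (0.80) and the corepressor TLE2 (0.75). With ZIC2 against knockout they were the membrane-bound WNT inhibitor APCDD1 (1.48, adjusted p = 1.28e-06), the homeobox gene GBX2 (1.40, adjusted p = 0.0128), the planar polarity gene PRICKLE2 (0.85), FGF8 (-0.52) and the GSK3-binding gene FRAT1 (-0.46). With ZIC2 against wild type they were PYGO1 (-1.10), APCDD1 (1.01), FGF8 (1.01), the R-spondin receptor LGR6 (0.96) and the SP5 relative SP8 (-0.91), and under ZNF263 overexpression DACT1 fell by 0.27.

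APCDD1 had 8.81, 9.32 and 7.08 CPM in knockout cells with ZIC2, 3.19, 3.74 and 2.05 CPM in knockout cells, 2.73, 2.99 and 4.44 CPM under ZNF263 overexpression, and 4.27, 4.48 and 3.81 CPM in wild type. The libraries with ZIC2 stood above all others, as they did for WNT5A and LEF1. Of the 15 tested among 21 further published WNT targets, 9 were higher and 1 lower in knockout, 2 higher and 3 lower with ZIC2 against knockout, 8 higher and 1 lower with ZIC2 against wild type, and none was called under ZNF263 overexpression. In knockout that was 60.0% higher and 6.67% lower, beside 20.0% and 18.5% of all genes, with ZIC2 against knockout 13.3% and 20.0%, beside 4.99% and 3.35%, and with ZIC2 against wild type 53.3% and 6.67%, beside 20.3% and 17.3%. Their median log2 fold changes were 0.48, -0.15, 0.31 and -0.06 in these comparisons, beside medians of all genes within 0.01 of 0.

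Marker lists, mitochondrial and ribosomal shares and base composition moved with the knockout groups, and their part in the changes of the 53 genes was not tested. The 8 neuroectoderm markers, led by NES, summed to 464 to 518 CPM with ZIC2, 446 to 492 CPM in knockout, 348 to 355 CPM under ZNF263 overexpression and 351 to 367 CPM in wild type. That sum was led by 1 gene: of the 7 tested, 2 were higher and 3 lower in knockout against wild type (median log2 fold change -0.53), and 1 higher and 3 lower with ZIC2 against wild type (median -0.75). The 7 endoderm markers, led by FOXA2, summed to 9.54 to 10.4, 9.09 to 10.3, 4.54 to 5.56 and 6.08 to 7.51 CPM, the 8 fibroblast markers, led by THY1, to 634 to 684, 553 to 598, 506 to 519 and 504 to 516 CPM, and the 9 trophoblast and amnion markers, led by KRT7, to 12.4 to 12.5, 9.16 to 11.4, 10.4 to 10.9 and 8.43 to 8.58 CPM in the same order of groups. None of these markers was at 0 in all libraries. Of the 5 trophoblast and amnion markers tested, 2 were higher and 1 lower in knockout against wild type (median log2 fold change -0.00881). With ZIC2 against wild type 3 were higher and none lower. Of the 5 fibroblast markers tested, 3 were higher and none lower in knockout, and 3 higher and 1 lower with ZIC2 against wild type. Of all genes, 38.6% and 37.6% were called in these comparisons. Only 2 endoderm markers were tested. Mitochondrial transcripts made up 0.963 to 1.13% of counts with ZIC2, 1.11 to 1.16% in knockout, 1.36 to 1.44% under ZNF263 overexpression and 1.36 to 1.40% in wild type, and RNA45S5, the ribosomal precursor, 0.0791 to 0.176%, 0.122 to 0.257%, 0.0543 to 0.0810% and 0.0471 to 0.0729%. Across genes, the log2 fold change tracked GC content in knockout against wild type (Spearman rho 0.42) and with ZIC2 against wild type (0.44), less so under ZNF263 overexpression (0.26) and hardly with ZIC2 against knockout (0.01); the values are over 14708 genes, which are not independent replicates.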

How the data were processed

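RNA-seq of 12 H1 libraries was analysed from whole-number counts per gene, which the authors deposited without normalization. Per the labels' protocols, RNA was taken up in TRIzol, selected with poly(A) beads and built into libraries with an NEBNext Ultra II kit. That kit keeps no strand, so genes that overlap on opposite strands share reads. The submitters' processing notes name STAR, featureCounts, DESeq2 and hg19. Of the 27130 genes, 3461 had no count. The filter filterByExpr (about 0.528 CPM in 3 libraries) left 15437 genes. They were scaled by TMM and fitted with edgeR 4.0.16 (R 4.3.3), with group as the only term, 8 residual degrees of freedom and Benjamini-Hochberg adjustment over all of them; the fit was tested on simulated counts. CPM uses the TMM factors. Pooled ratios have exact 95% intervals, which cover counting error only. No pair of replicates agreed within counting error (chi-square 1.39 to 10.5 per gene).

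The members and lists were chosen with earlier results of these data known. Called members with a log2 change of at least 0.5 and at least 1 CPM on average in their higher group are given per library; other members given per library were chosen after their values were seen. Up to 5 other pathway genes were named per comparison by size of change, with that same minimum. Alternatives were the size factors and test of DESeq2 1.42.0, limma-voom (limma 3.58.1), other filters, fits of the 6 libraries compared, a replicate block, GC and length offsets (GC known for 95.3% of tested genes), and leaving out each library. Promoter windows are from RefSeq GRCh38.p14 and gene coordinates are hg19, never converted. Marker lists are given as summed CPM.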

Additional observations from a re-analysis of the deposited data

How the results depend on the processing

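In knockout against wild type, members called higher numbered 9 to 12 under every alternative run, and those called lower 5 to 7. With ZIC2 against knockout, the 4 members called lower became 2 when only the 6 libraries were fitted, 7 with the GC and length correction (AXIN1, LRP5 and TCF7L1 added) and 7 when a replicate block was added to it, and 2 to 4 without 1 library. All genes called there numbered 1288, against 2297 and 2251 with the correction without and with the block, and 842 to 1476 without 1 library, the lowest without replicate 1 with ZIC2. With ZIC2 against wild type, the 14 members called higher became 7 under the correction and 7 with the block added; AXIN1 then stood at -0.0336 and -0.0322 and TCF7L1 at -0.0518 and -0.0517 (log2). Under ZNF263 overexpression the 118 genes called became 220 with no filter, 431 from the 6 libraries, 228 with the correction, 230 with the block added, and 50 to 77 without 1 library. Members called higher there became 1 with no filter (SFRP1), 4 from the 6 libraries (FZD2, FZD8, SFRP1 and SFRP2), 2 with the correction (SFRP1 and SFRP2) and 2 with the block added; the count called lower, which is FZD5 alone, was 0 to 1 without 1 library. The cause of these changes was not tested.

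With no filter, SP5, WNT6 and FZD8 were also called higher with ZIC2 against knockout. Deviations of same-numbered libraries from their group means had correlations of -0.11 to 0.11. With ZIC2 against knockout these were 0.00921, 0.112 and 0.0440, and those of different-numbered libraries were -0.102 to 0.0778. Deviations from means of 3 libraries cannot settle whether the numbers mark pairs, and the labels do not say. The replicate block alone gave 11 members higher and 6 lower, 6 and 3, 13 and 6, and 0 and 1 in the 4 comparisons. Of single members, 71 values under an alternative lost their call and 4 turned sign, AXIN1 and TCF7L1 above. Depth limits the ligands most: WNT3A had 0 to 3 counts per library without ZIC2, and no change of the untested ligands smaller than their intervals was detectable.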
